A study of Mus musculus with 288 samples.

Results

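The genes described here are 10 regulators of muscle wasting and muscle growth: the ubiquitin ligase genes Fbxo32 and Trim63, the transcription factor genes Foxo1 and Foxo3, the growth inhibitor gene Mstn, the myogenic factor genes Myod1 and Myog, and the transcription factor genes Klf15, Mef2c and Mef2d. They were chosen by name, and all 10 were found among the 35904 genes measured. RNA was sequenced from muscle, heart, lung, kidney, liver and cerebellum of male wild-type C57BL/6J mice, 8 weeks old, after 7 days of room air (normoxia) or of intermittent hypoxia (IH), in which inhaled oxygen fell repeatedly from 21% to 8% during the light phase. All animals then entered constant darkness in room air, and tissues were taken on the second day of darkness. There were 8 time points 3 hours apart, labelled from 1:30 to 22:30, with 3 mice per time and treatment. This gave 24 libraries per tissue and treatment. Which muscle was sampled is not stated, nor which libraries of different tissues came from the same animal. What the labelled hours are counted from is not stated either, so they are not read as time of day. Values are TPM, a transcript abundance corrected for transcript length and library size, so they do not show how deeply each library was sequenced. Each library summed to between 989211 and 999188 TPM.

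Muscle mass follows the balance of protein synthesis and breakdown. In wasting muscle, FOXO transcription factors enter the nucleus when insulin and IGF signalling through AKT falls, and they switch on Fbxo32 (atrogin-1) and Trim63 (MuRF1), whose products tag muscle proteins for the proteasome. Myostatin, the Mstn product, holds growth back through activin receptors and SMAD proteins, glucocorticoids act partly through Klf15, and Myod1, Myog and the Mef2 factors drive the genes of the muscle fibre.

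Several libraries stood apart from the others of their tissue. The predicted gene Gm19220 took at least 5% of all TPM in 22 of 48 cerebellum libraries, 18 of 48 kidney libraries, 3 in heart, 2 in liver, 1 in lung and 1 in muscle, and reached 63.3% in the liver library of replicate 2 at 13:30 after IH. That liver library also had the lowest median correlation with the rest of its tissue, 0.6930. Its Trim63 was 25.1 TPM, against at most 0.386 TPM in the other 23 liver libraries after IH. The heart marker genes in it summed to 5246 TPM, against a median of 27.9 TPM in the others, and the liver markers to 1084 TPM against 37239 TPM. In cerebellum after IH, replicate 3 at 1:30 held 29.3 TPM of Trim63, where the other 23 reached at most 13.8 TPM, with heart markers at 6031 TPM against a median of 379 TPM. In heart in normoxia, replicate 3 at 7:30 held the lowest Trim63, 30.5 TPM, and the highest Foxo1, 5.67 TPM, and its lung markers summed to 1561 TPM, against a median of 0.929 TPM and a highest value of 1997 TPM in the other 23 libraries. In muscle after IH, replicate 2 at 16:30 held the highest Foxo1, 11 TPM, and its adipocyte markers summed to 12725 TPM against a median of 3952 TPM. In lung after IH, replicate 2 at 1:30 held the highest Trim63, 4 TPM, where the other 23 reached at most 3.47 TPM. Its lung markers summed to 33250 TPM against a median of 144969 TPM. The number of genes above 0 also differed between treatments. In heart it was 25124 ± 1719 (SD, n = 24) in normoxia and 21447 ± 688.5 after IH, and in lung 22694 ± 736.9 and 25455 ± 1529. In muscle it was 23310 ± 1710 and 23501 ± 1415.

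The first question was where each gene was expressed. Levels below are TPM as deposited in normoxia, as mean ± SD over 24 libraries, and are a description with no test. Both ubiquitin ligase genes were highest in muscle. Fbxo32 (chr15:58175879-58214932, minus strand, GRCm38) was 24.6 ± 9.33 TPM in muscle, 8.56 ± 2.76 TPM in heart, 5.79 ± 1.36 TPM in lung and 2.85 ± 0.897 TPM in cerebellum. The ranges of these neighbours in the order overlapped. Kidney and liver, at 0.632 and 0.475 TPM, lay below every cerebellum library and overlapped each other. Trim63 (chr4:134315120-134329629, plus strand) was 125 ± 28.5 TPM in muscle and 56.1 ± 13.5 TPM in heart, and 22 of 24 muscle libraries exceeded the highest heart library. Every heart library lay above every kidney library, where the mean was 13.7 ± 2.48 TPM.

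Trim63 in kidney stood beside low levels of the defining genes of striated muscle. In the same normoxia libraries the actin gene Acta1 averaged 0.541 TPM, the myosin gene Myh4 0.062 TPM, Ckm 0.285 TPM and the cardiac myosin gene Myh6 0.216 TPM. The skeletal muscle marker list summed to 48.9 TPM there, of which 43.2 TPM was Pvalb. Over the 24 normoxia libraries Trim63 had r = 0.36 with Acta1 (rho = 0.73, and r = 0.57 without the 2 libraries farthest from the median), 0.40 with Mylpf (0.43 and 0.40; mean 3.44 TPM) and −0.23 with Myh6 (−0.33 and −0.31). In cerebellum Trim63 averaged 4.53 ± 3.76 TPM, and over the 24 normoxia libraries its log2 level followed that of Myh6 with Pearson r = 0.94 and Spearman rho = 0.95, and r = 0.95 without the 2 libraries farthest from the median. After IH the values were 0.92, 0.95 and 0.98. Heart markers summed to a mean of 903 TPM in cerebellum in normoxia (median 645 TPM) and 783 TPM after IH (median 380 TPM). Tnnt2 was the most abundant, and all 6 genes had a mean of at least 1 TPM. In bulk tissue, fewer cells of a type and less RNA per cell cannot be told apart, and the part of other tissue in these levels was not tested.

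The promoter of Trim63 is shown because the largest called change of the 10 genes after IH was that of Trim63, in lung. Genes needed a mean of at least 1 TPM to be tested, and in lung Trim63 reached it only through its values after IH. The sequence is the plus strand of chr4:134314870-134315169, from RefSeq on GRCm38.p6, with 250 bases before and 50 after the start of the gene. Capitals mark 3 motif matches: the glucocorticoid receptor half-site AGAACA, read here on the opposite strand as TGTTCT, at bases 51 to 56; directly after it, without overlap, the FOXO motif GTAAACA, read as TGTTTAC, at bases 57 to 63; and CAGCTG, an E-box that MyoD can bind, at bases 179 to 184.
Trim63: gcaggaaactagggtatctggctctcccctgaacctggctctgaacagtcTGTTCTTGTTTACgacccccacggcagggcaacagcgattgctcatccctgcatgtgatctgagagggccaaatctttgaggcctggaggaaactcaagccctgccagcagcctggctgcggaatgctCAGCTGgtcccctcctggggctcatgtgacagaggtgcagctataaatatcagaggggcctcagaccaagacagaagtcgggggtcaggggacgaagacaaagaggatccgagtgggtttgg
Of 32851 mouse promoters of 300 bases, 19% held the half-site on either strand, 3.65% the FOXO motif and 16.3% CAGCTG. Entries were found for 8 of the 10 genes; Fbxo32 and Myod1 were without one. The FOXO motif was matched in none of the other promoters found, CAGCTG in none, and the half-site in 2 of 3 Mef2c entries. A match describes the letters in this window and is not a measured binding site.

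The FOXO genes had another order. Foxo1 (chr3:52268336-52353221, plus strand) was highest in lung at 14 ± 1.78 TPM, where every library lay above every muscle library, at 5.5 ± 1.54 TPM. Kidney (4.35 TPM), liver (4.15 TPM), cerebellum (4 TPM) and heart (3.2 TPM) followed with overlapping ranges. Foxo3 (chr10:42181841-42276755, minus strand) was 24.7 ± 7.08 TPM in lung and 22.2 ± 6.61 TPM in cerebellum, whose ranges overlapped. It was lowest in muscle, 6.43 ± 1.61 TPM, below kidney (11 TPM), liver (8.56 TPM) and heart (7.97 TPM), again with overlap between neighbours.

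Mstn, Myod1 and Myog marked muscle. Mstn (chr1:53061640-53068079, plus strand) was 28.5 ± 5.08 TPM there, Myod1 (chr7:46376474-46379099, plus strand) 18.7 ± 7.96 TPM and Myog (chr1:134289989-134292548, plus strand) 3.84 ± 1.64 TPM. In every other tissue their means were at most 0.249, 0.1 and 0.123 TPM, each in cerebellum, and no library of another tissue reached the lowest muscle library. Myod1 was listed at 0 in 24 of 24 kidney libraries after IH and Myog in 24 of 24 kidney libraries in normoxia. Heart, although striated, held 0.101 TPM of Mstn, 0.0221 TPM of Myod1 and 0.0147 TPM of Myog.

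Klf15 (chr6:90462576-90475238, plus strand), a Krüppel-like factor of amino acid and glucose metabolism, was highest in liver, 64.3 ± 20.3 TPM, and kidney, 45.2 ± 8.81 TPM. Lung held 25.6 ± 8.69 TPM, muscle 21 ± 5.11 TPM, heart 13.7 ± 3.2 TPM and cerebellum 12.8 ± 3.55 TPM, and all neighbours overlapped. The myocyte enhancer factor gene Mef2c (chr13:83504034-83667080, plus strand) was 121 ± 18 TPM in muscle, above every lung library (15.5 ± 3.57 TPM). Heart held 11 ± 3.37 TPM and cerebellum 9.76 ± 2.63 TPM, which overlapped, and every cerebellum library lay above every kidney library (2.58 TPM), whose range overlapped that of liver (0.868 TPM). Mef2d (chr3:88142372-88172086, plus strand) was 62.2 ± 12.8 TPM in muscle, 32.5 ± 5.83 TPM in lung and 23.3 ± 7.55 TPM in heart, and 1 muscle library fell within the lung range. The plot of levels by tissue shows both treatments. After IH the lung and muscle ranges of Foxo1 overlapped, and heart stood above liver in mean Foxo1 (4.49 and 3.35 TPM) and Foxo3 (11.1 and 7.73 TPM), with overlapping ranges.

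**Figure D1:**
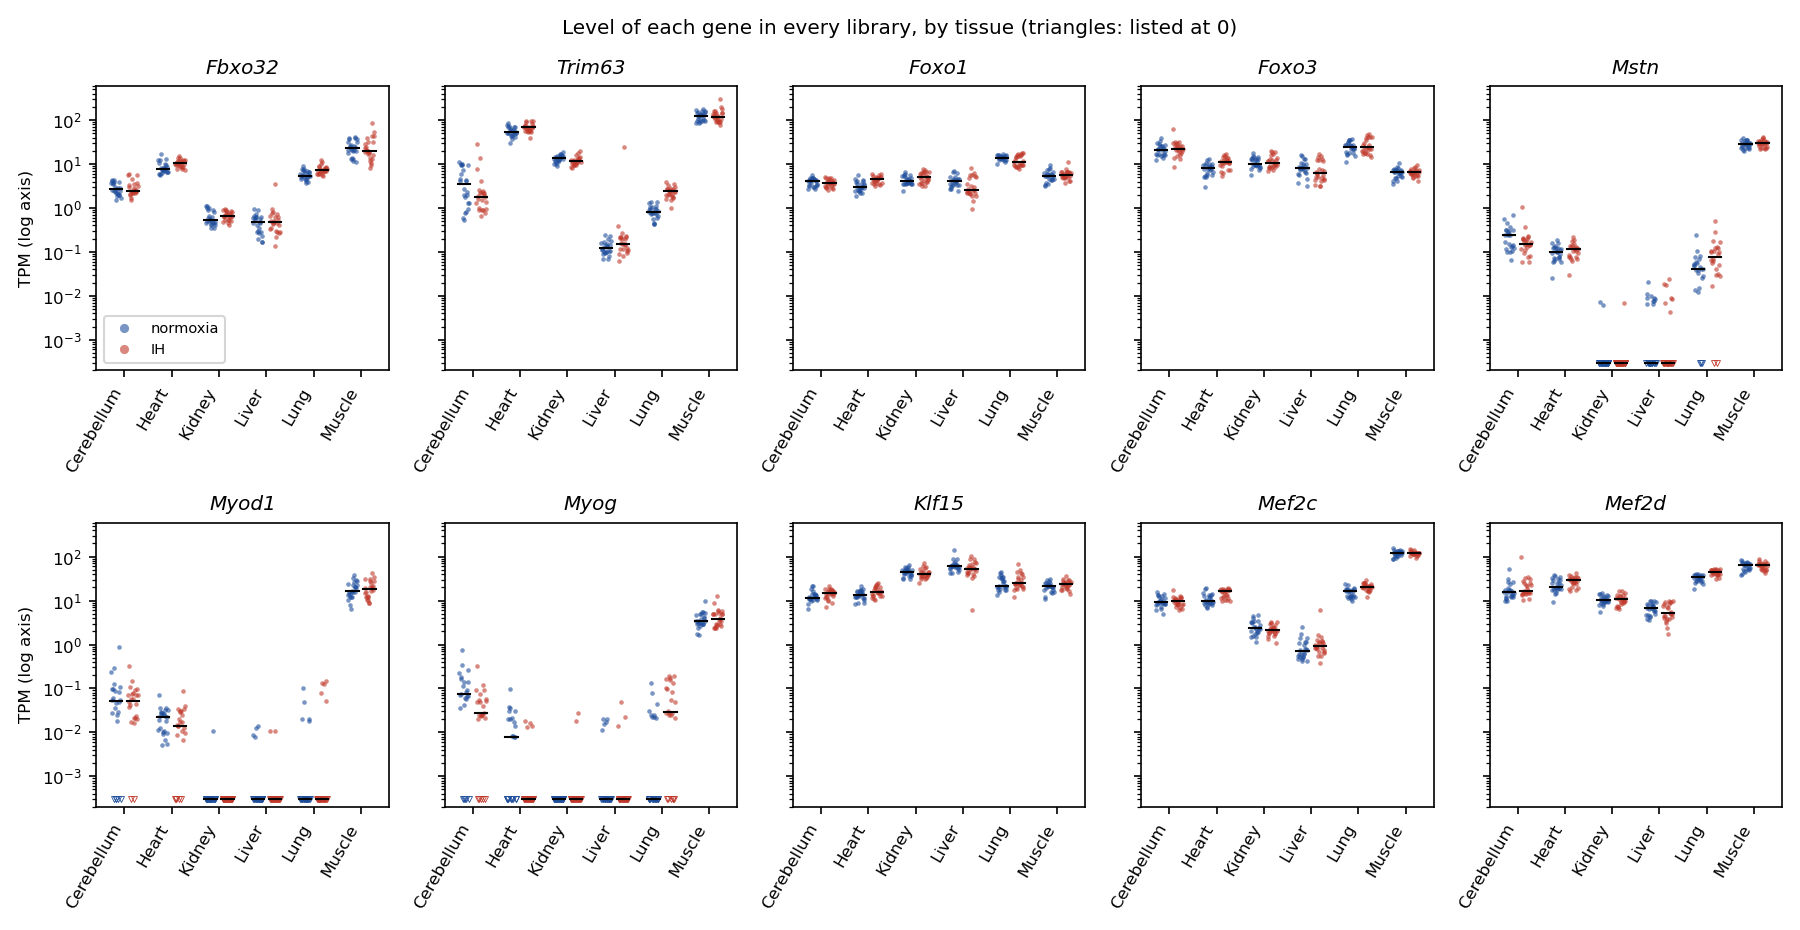
TPM of each of the 10 genes on a log axis, 1 point per library, by tissue and treatment (24 libraries each); black bars are medians and triangles mark libraries where the gene is listed at 0. Outside muscle, Mstn, Myod1 and Myog lie below 1 TPM except Mstn in 1 cerebellum library after IH (1.04 TPM), and the single high Trim63 point in liver after IH is the 25.1 TPM library.

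The promoter of Klf15 is shown because its level followed the labelled time in several tissues, as described with the rhythms. It is the plus strand of chr6:90462326-90462625, RefSeq on GRCm38.p6, and capitals mark 3 copies of the E-box CACGTG, the sequence that the clock factors CLOCK and BMAL1 can bind, at bases 23 to 28, 79 to 84 and 248 to 253.
Klf15: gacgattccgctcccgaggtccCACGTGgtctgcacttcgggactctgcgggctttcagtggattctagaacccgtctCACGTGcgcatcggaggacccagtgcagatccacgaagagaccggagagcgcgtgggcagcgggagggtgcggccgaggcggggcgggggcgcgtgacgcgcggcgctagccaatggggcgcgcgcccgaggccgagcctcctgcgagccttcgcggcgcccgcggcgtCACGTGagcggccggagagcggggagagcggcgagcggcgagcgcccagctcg
At least 1 copy was present in 7.15% of the 32851 promoters, and in no other promoter of the group. The D-box TTATGTAA (0.938% of promoters) and the 10-letter MEF2 motif (0.164%) were also searched on both strands and matched in none of the 10 entries. Foxo1, Foxo3, Mstn, Myog and Mef2d held no exact match to any motif searched. Each motif was searched in 1 spelling only, so sites with other spellings, such as variant MEF2 sites, would be missed.

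Heart and muscle, the 2 striated tissues, were compared directly in normoxia. Tests here and below were made with limma on log2(scaled TPM + 0.5), where scaling divides each library by its median ratio to the other libraries, and p-values were adjusted over all genes tested, those with a mean of at least 1 TPM. Differences on this scale understate those of genes near or below the pseudocount. Calls here needed at least 1.5-fold beside an adjusted p of at most 0.05, and 7 of 10 genes met both, against 35.3% of all 13087 genes, and all 7 were lower in heart. Mstn, Myod1 and Myog passed the filter on low values only through muscle, so their direction was fixed by it and the count is given as a description alone. Mstn differed by −5.38 ± 0.05 (log2 ± SE), Myod1 by −4.91 ± 0.11, Mef2c by −3.11 ± 0.08 and Myog by −2.85 ± 0.09. Mef2d (−1.11 ± 0.07), Fbxo32 (−1.10 ± 0.13) and Trim63 (−0.82 ± 0.11) differed less, with the adjusted p of Trim63 at 1.06e-09. Foxo3 was 1.49-fold higher in heart (0.58 ± 0.08, adjusted p = 1.50e-08), just under the fold asked for, and Foxo1 (−0.40) and Klf15 (−0.26) were lower by less than 1.5-fold. With TPM unscaled Foxo1 and Klf15 passed as well, both lower in heart, and 9 of 10 genes were called beside 40.7% of all genes. The libraries of both tissues were taken as independent, although they may share mice.

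Muscle after IH was the comparison of most direct interest for these genes. Their levels were much the same in both treatments. Trim63 ranged from 84.7 to 177 TPM in normoxia (median 127) and from 79.6 to 304 TPM after IH (median 121). Fbxo32 ranged from 11.2 to 41 TPM (median 23.4) and from 8.15 to 88 TPM (median 19.9). For both genes the range after IH covered the whole normoxia range and reached further up, and the highest library of each was replicate 1 at 19:30 after IH. Mstn was 28.5 ± 5.08 and 29.9 ± 5.4 TPM, Foxo1 5.5 ± 1.54 and 5.84 ± 1.46 TPM, and Mef2c 121 ± 18 and 122 ± 12.6 TPM.

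None of the 10 genes was called in muscle by limma: 0 of 10 at an adjusted p of 0.05, where 10.4% of all 12824 genes passed, and 0 of 10 with the 1.5-fold rule, where 0.374% passed. At an unadjusted p of 0.05 the count was also 0 of 10, against 3063 of all genes. The 95% intervals show how large a change remains possible. For Mef2c it ran from −0.17 to 0.01 around −0.08 (adjusted p = 0.28, lower at 6 of 8 time points), for Foxo3 from −0.18 to 0.07, for Mef2d from −0.19 to 0.05, for Mstn from −0.16 to 0.10 and for Foxo1 from −0.14 to 0.15. The ligase genes were less tightly held, Trim63 from −0.27 to 0.14 and Fbxo32 from −0.55 to 0.24. Klf15 (−0.08 to 0.26), Myog (−0.20 to 0.36) and Myod1 (−0.36 to 0.29) also spanned 0. The median change of the 10 genes was −0.04, beside 0.00 over all genes. None was called under any of 15 other ways of processing the data. In the same libraries 3 of 8 skeletal muscle markers fell, Acta1 by −0.29, Pvalb by −0.23 and Ckm by −0.23 (adjusted p = 0.00543, 0.00601 and 0.0116), and their summed level was 144710 TPM in normoxia and 135128 TPM after IH.

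**Figure D2:**
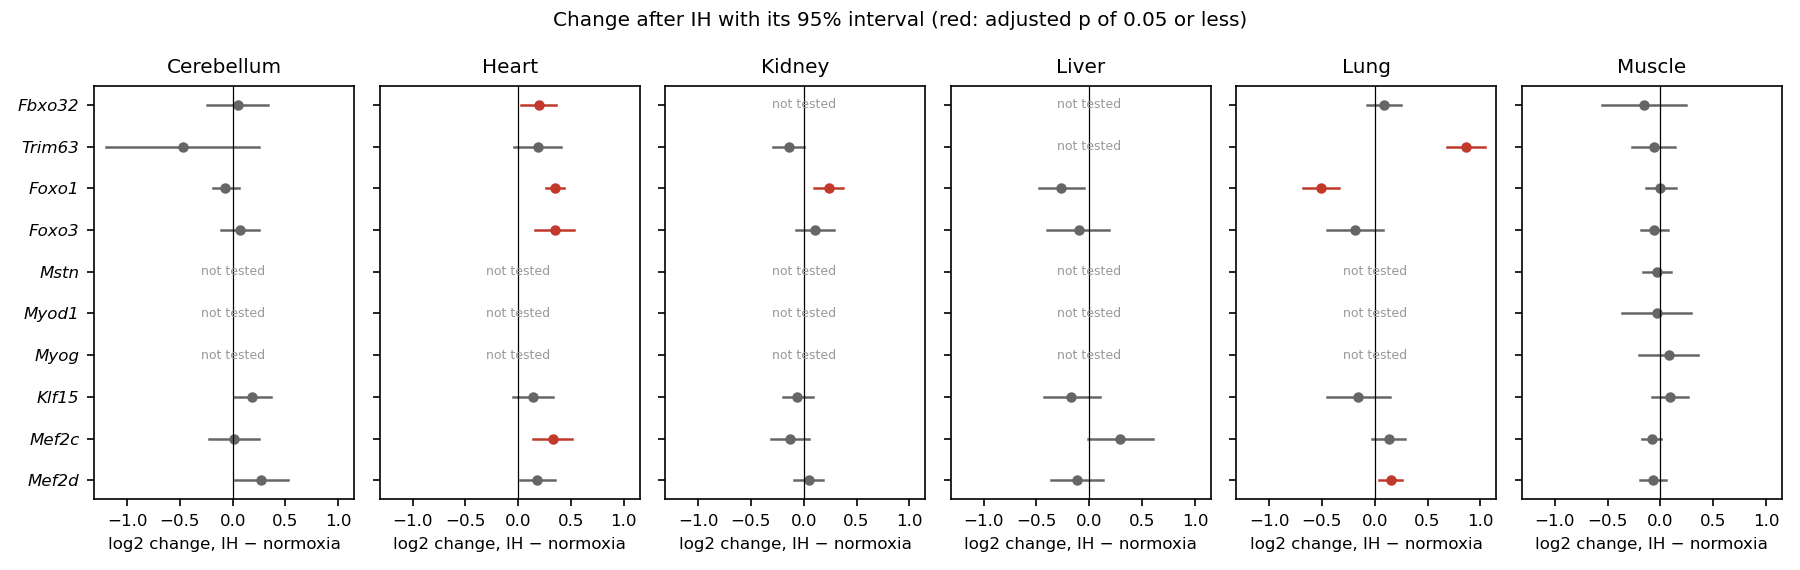
Log2 change after IH against normoxia for each gene tested in each tissue, with 95% intervals; red marks an adjusted p of at most 0.05. All 10 intervals in muscle include 0, and the largest change is Trim63 in lung at 0.86.

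The pathway lists in muscle are read beside 10.4% of all genes called. Among lists of named genes, 0 of 11 other muscle ubiquitin ligases, 0 of 11 FOXO-linked atrophy genes and 0 of 4 tested denervation and regeneration genes passed, with list medians of −0.01, 0.05 and 0.01 beside 0.00 over all genes. In the myostatin and activin pathway 1 of 13 rose, Inhba (0.22 ± 0.07, adjusted p = 0.0337, 8 of 8 time points; median 0.06). Inhba averaged 0.972 TPM in normoxia and 1.28 TPM after IH, so it passed the filter on low values only through the values after IH. In the IGF, AKT and mTOR pathway 2 of 15 rose and 1 fell (median 0.05). The receptor genes Igf1r (0.38 ± 0.05, adjusted p = 5.32e-07, 2.18 to 3.21 TPM) and Insr (0.24 ± 0.06, adjusted p = 0.00393, 10 to 12.7 TPM) were higher at 8 of 8 time points. The mTOR inhibitor gene Tsc2 (−0.16 ± 0.03, adjusted p = 9.68e-04) was lower at all 8. Single genes were called in 3 further lists: Six4 among 14 myogenic factors and partners (0.31 ± 0.08, median −0.05), Zbtb16 among 7 glucocorticoid-responsive genes (0.46 ± 0.15, median 0.16) and Bckdk among 6 KLF15-linked metabolic genes (−0.16 ± 0.04, median 0.03). The clock reference genes Arntl, Dbp and Nr1d1 gave 0 of 3 (median −0.12).

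In heart, 4 of 7 tested genes rose after IH, and 45.2% of all 12779 genes were called there, so the share is near that of all genes. Foxo1 ranged from 1.89 to 5.67 TPM in normoxia (median 2.94) and from 3.16 to 5.86 TPM after IH (median 4.54). The ranges overlapped, and the 5.67 TPM library was replicate 3 at 7:30. Its log2 change was 0.35 ± 0.04 (limma adjusted p = 2.08e-08) and it was higher at 8 of 8 time points. Foxo3 ranged from 3.05 to 13.4 TPM (median 7.98) and from 5.33 to 16.7 TPM (median 11.2), with overlap. It rose by 0.35 ± 0.09 (adjusted p = 0.00227, 8 of 8). Mef2c ranged from 6.81 to 19.7 TPM (median 9.65) and from 9.56 to 19.3 TPM (median 16.1), and rose by 0.33 ± 0.09 (adjusted p = 0.00329, 8 of 8). These groups overlapped as well, and the highest Mef2c library was in normoxia. In replicate 2 alone Mef2c was 0.07 (adjusted p = 0.717), and its call was also lost without replicate 1 and in replicate 3 alone. Foxo3 was not called in replicate 2 alone or replicate 3 alone.

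Fbxo32 in heart ranged from 5.52 to 17 TPM (median 7.74) in normoxia and from 7.4 to 15.4 TPM (median 10.4) after IH, and was called at the edge of the threshold (0.20 ± 0.08, adjusted p = 0.0469, higher at 6 of 8). The ranges overlapped in full. Without the heart library of replicate 3 at 7:30 it was 0.16 (adjusted p = 0.0768), and it was called in 4 of 15 other settings. Mef2d (0.18, adjusted p = 0.0618), Trim63 (0.19, adjusted p = 0.166) and Klf15 (0.14, adjusted p = 0.246) were not called. With the 1.5-fold rule 0 of 7 were called, where 2.95% of all genes were. The median of the 7 genes was 0.20, beside 0.04 over all genes.

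The heart calls depended on how the difference in genes detected was treated. With the log2 number of genes above 0 as a further term, 0 of 7 genes and 2.01% of all genes (257) were called. Foxo1 was then 0.14 (adjusted p = 0.251), Foxo3 0.15 (0.644), Mef2c −0.17 (0.517) and Fbxo32 −0.12 (0.657). Since that number differed between treatments, it and the treatment cannot be fully told apart in this fit. With TPM unscaled, 7 of 7 were called, all higher, beside 43.9% of all genes called in either direction. Scaling lowered the median change of all heart genes from 0.15 to 0.04; the same step moved lung from 0.21 to −0.08, liver from −0.12 to −0.01 and muscle from 0.09 to 0.00. Markers of other cell types rose in the same heart libraries. All 3 endothelial markers rose (summed 136 to 202 TPM, Pecam1 most abundant), as did 4 of 4 fibroblast markers (430 to 605 TPM, Dcn), 2 of 3 macrophage markers (29.3 to 41.3 TPM, Csf1r) and 1 of 3 Schwann cell markers (34.4 to 47.7 TPM, Pmp22). Every one of these genes had a mean of at least 1 TPM in both treatments. Of 6 heart markers 1 rose, Ryr2, and they summed to 17200 and 17775 TPM with Tnnt2 most abundant. Slow fibre markers were mixed, with Atp2a2 higher (0.48) and Myh7 (−0.47) and Tnnt1 (−0.38) lower of 5 tested. Of 5 liver markers 1 rose, Cyp2e1, and 0 of 5 fast fibre and 0 of 7 skeletal muscle markers tested were called. Their part in the result was not tested.

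The calls in the pathway lists in heart were mostly upward, beside 45.2% of all genes called in either direction. Among other ubiquitin ligases 7 of 11 rose and 0 fell (median 0.25, all genes 0.04), led by Fbxo40 (0.39 ± 0.12, 21.6 to 30.8 TPM, adjusted p = 0.00536), Trim32 (0.37 ± 0.04, adjusted p = 7.66e-09) and Nedd4 (0.36 ± 0.08, adjusted p = 3.51e-04), each higher at 8 of 8 time points. Among FOXO-linked genes 6 of 11 rose and 1 fell (median 0.18). Irs2 (0.45 ± 0.08), the cell cycle inhibitor gene Cdkn1a (0.41 ± 0.16) and Pdk4 (0.40 ± 0.14), a brake on glucose oxidation, led. In the myostatin and activin pathway 8 of 12 rose (median 0.18), with Fstl3 (0.30), an inhibitor of activin, Wfikkn2 (0.28), an inhibitor of myostatin, and the receptor gene Acvr1b (0.25) as the largest. In the IGF, AKT and mTOR pathway 9 of 15 rose and 1 fell (median 0.17; Igfbp5 0.58, Irs1 0.42, Rptor 0.39). Myogenic partners gave 2 of 10 higher (Hdac4 0.32, Mef2a 0.21; median 0.09), glucocorticoid-responsive genes 2 of 7 (Klf9 0.32, Nr3c1 0.23; median 0.23), KLF15-linked genes 2 of 7 (the glucose transporter gene Slc2a4 0.50, Bckdha 0.26; median 0.05), denervation genes 2 of 3 (Ncam1 0.30 among them; median 0.30) and clock genes 0 of 3 (median 0.09).

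Whether IH acted differently on muscle and heart was tested as an interaction. It was called for 4 of 7 genes, each with a lower change in muscle than in heart. Of all 12027 genes 37.6% were called, in either direction. The difference was −0.37 ± 0.08 for Foxo1 (adjusted p = 2.69e-04), −0.43 ± 0.11 for Foxo3 (0.00176), −0.44 ± 0.11 for Mef2c (5.79e-04) and −0.29 ± 0.10 for Mef2d (0.0228). It was not called for Fbxo32 (−0.38, adjusted p = 0.16), Trim63 (−0.28, 0.143) or Klf15 (−0.08, 0.664). With a block for replicate number and presumed animal, limma called Trim63 as well (−0.28, adjusted p = 0.0356). Without replicate 1 in both tissues only Mef2c passed (−0.41, adjusted p = 0.0242), and Foxo1 (−0.24, 0.0871), Foxo3 (−0.24, 0.141) and Mef2d (−0.11, 0.5) did not. With TPM unscaled Mef2d was lost (−0.28, adjusted p = 0.157), and 3 of 7 were called beside 21% of all genes.

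In lung, Trim63 showed the largest change of the group. It ranged from 0.425 to 1.34 TPM in normoxia (median 0.808) and from 1.02 to 4 TPM after IH (median 2.4). The groups overlapped only between 1.02 and 1.34 TPM. The log2 change was 0.86 ± 0.09 (limma adjusted p = 1.42e-11, 8 of 8 time points), and it was called in 15 of 15 other settings, between 0.66 and 1.09. The pseudocount makes this an understatement: mean scaled TPM went from 0.93 to 2.1. These are low levels, far under the 125 TPM of muscle. The normoxia mean of Trim63, 0.846 TPM, lay under the filter of 1 TPM, so it was tested only through its values after IH. With the filter at 0.1 TPM, or with no filter, it was called as well. In the same libraries 4 of 6 heart markers rose (summed 369 to 610 TPM, Myl7 most abundant at 135 and 197 TPM), 2 of 7 tested fast fibre markers rose (mean sum 30.5 to 88.6 TPM, median 14 to 21.2 TPM), and 1 of 7 tested skeletal muscle markers rose (mean sum 58.2 to 157 TPM, median 28.2 to 44.2 TPM), the sums being over the whole lists of 9 and 8 genes. Over 24 lung libraries Trim63 followed Myh6 with r = 0.67 in normoxia (rho = 0.72, and 0.63 without the 2 farthest libraries) and with r = −0.01 after IH (rho = 0.00, and 0.26). With the skeletal muscle gene Mylpf r was 0.29 in normoxia (0.17 and 0.06) and 0.56 after IH (0.61 and 0.61), and with Tnnt2 0.60 (0.53 and 0.50) and 0.18 (0.19 and 0.48). Their part in the result was not tested.

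Of 7 genes tested in lung, 3 were called, where 70.4% of all 15426 genes were, and 1 with the 1.5-fold rule, where 13.5% were, so the group did not stand above the background. Foxo1 fell. It ranged from 9.91 to 17.2 TPM in normoxia (median 14) and from 7.72 to 17.9 TPM after IH (median 11.5). The ranges overlapped in full, and the replicates differed. Foxo1 averaged 9.99, 11 and 16 TPM in replicates 1, 2 and 3 after IH, and 15.3, 13.6 and 13.2 TPM in normoxia. The pooled change was −0.51 ± 0.08 (adjusted p = 7.87e-07, lower at 8 of 8), made up of −0.83 in replicate 1 alone (adjusted p = 5.71e-06), −0.68 in replicate 2 (7.68e-04) and −0.05 in replicate 3 (0.519). With TPM unscaled it was −0.22 (adjusted p = 0.025). Mef2d rose by 0.15 ± 0.05 (adjusted p = 0.0122, 8 of 8), and ranged from 17.9 to 40.6 TPM in normoxia (median 33.7) and from 31.8 to 52.1 TPM after IH (median 45). Its ranges overlapped, and its change was −0.09 in replicate 1 alone, 0.07 in replicate 2 and 0.45 in replicate 3. With TPM unscaled it was 0.45 over all replicates.

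Foxo3 and Klf15 in lung, not called over all replicates (−0.19, adjusted p = 0.202, and −0.16, adjusted p = 0.342), had opposite signs by replicate. Foxo3 was −0.80 in replicate 1 alone (adjusted p = 1.10e-05), −0.35 in replicate 2 (0.203) and 0.56 in replicate 3 (0.0016). Klf15 was −0.38, −0.60 and 0.48. With TPM unscaled both pooled values turned to 0.11 and 0.14. With genes detected as a further term Foxo3 was 0.59 (adjusted p = 8.87e-04) and Foxo1 0.04 (0.691). What a replicate number shares between animals is not recorded. Mef2c (0.13) and Fbxo32 (0.09) were not called, but were with TPM unscaled (0.42 and 0.37). The median of the 7 genes was 0.09, beside −0.08 over all genes. Lung's own markers fell in 4 of 4 genes (169828 to 123679 TPM, Scgb1a1), as did 3 of 3 endothelial markers (750 to 598 TPM, Pecam1) and 3 of 3 red blood cell genes, all with means of at least 1 TPM, and their part was not tested.

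**Figure D3:**
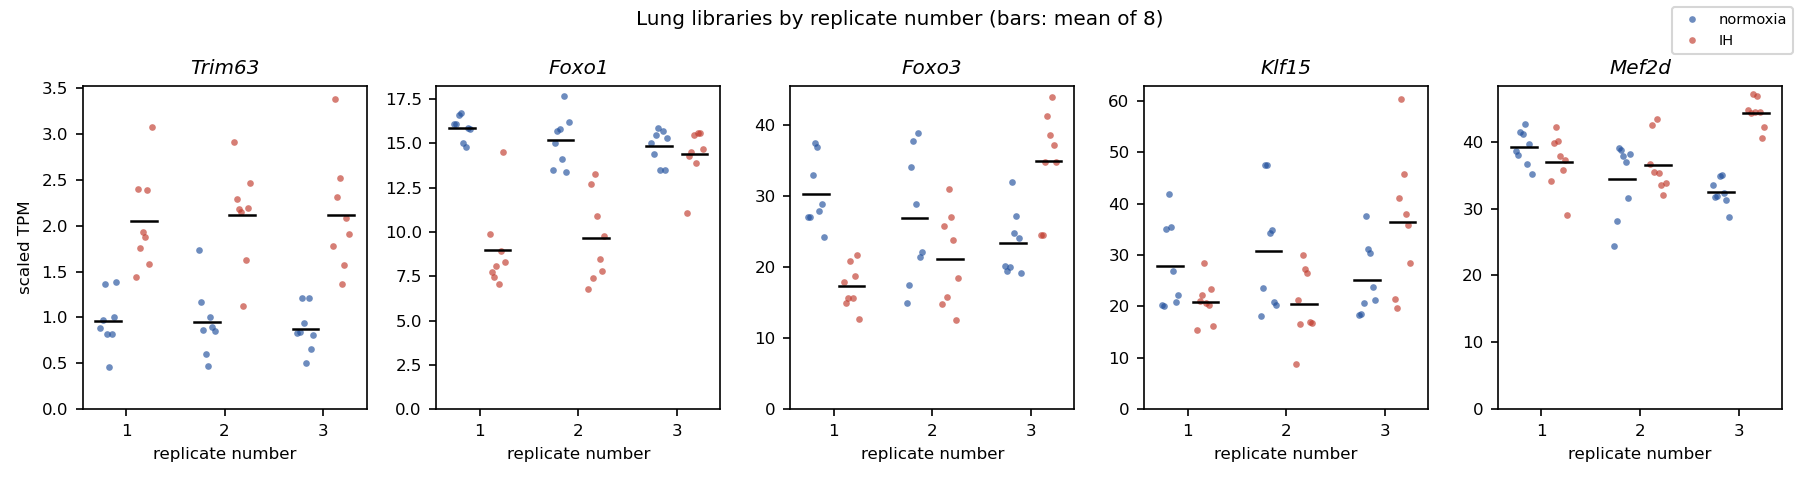
Scaled TPM in lung of Trim63, Foxo1, Foxo3, Klf15 and Mef2d by replicate number and treatment, 1 point per library; bars are means of 8 libraries. Trim63 is higher after IH in each replicate, while Foxo3 after IH lies below normoxia in replicate 1 and above it in replicate 3.

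The counts of the pathway lists in lung stand beside 70.4% of all genes called. FOXO-linked genes gave 1 higher and 8 lower of 11 (median −0.24, all genes −0.08), other ubiquitin ligases 3 higher and 4 lower of 9 (0.03), the myostatin and activin pathway 3 and 2 of 12 (−0.04), and the IGF, AKT and mTOR pathway 6 and 3 of 15 (0.09). Myogenic partners gave 2 higher and 3 lower of 11 (0.00), glucocorticoid-responsive genes 0 and 2 of 7 (−0.04), KLF15-linked genes 2 and 4 of 7 (−0.16), denervation genes 2 and 0 of 4 (0.39) and clock genes 0 of 3 (−0.37).

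In kidney, 1 of 6 tested genes was called (19.8% of 12902 genes), and 0 of 6 with the 1.5-fold rule (0.783%). Foxo1 rose, with a range from 2.47 to 6.47 TPM in normoxia (median 4.06) and from 3.14 to 7.56 TPM after IH (median 5.13). The groups overlapped. The change was 0.24 ± 0.07 (limma adjusted p = 0.0127, 7 of 8 time points). By replicate it was called in replicate 3 alone: replicates 1, 2 and 3 gave 0.24 (adjusted p = 0.217), −0.07 (0.72) and 0.53 (3.77e-04), and without libraries rich in Gm19220 it was 0.24 (0.0792). Trim63 in kidney was lower at 8 of 8 time points but not called (−0.14 ± 0.07, adjusted p = 0.163). All 3 red blood cell genes and 2 of 4 adipocyte markers rose in kidney.

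In liver, 0 of 5 tested genes were called by limma (24.2% of 11334 genes; 0 of 5 with the fold rule, 3.65%), and 1 had an unadjusted p under 0.05, as did 4195 of all genes. The member was Foxo1, −0.27 ± 0.11 (p = 0.017, adjusted p = 0.0635), lower at 8 of 8 time points, and −0.28 (adjusted p = 0.0507) without the library of replicate 2 at 13:30. By replicate it was −0.46 in replicate 1 alone (adjusted p = 0.00539), −0.48 in replicate 2 (0.00528) and 0.13 in replicate 3 (0.847). With the replicate number as a block it was called (−0.27, 0.00646). Mef2c averaged 0.868 TPM in normoxia and 1.14 TPM after IH, so it was tested only through its values after IH. The library of replicate 2 at 13:30 held 5.99 TPM of it, and the other 23 after IH averaged 0.932 TPM. Heart markers rose in 5 of 5 tested genes in liver (median sum 10.6 to 28.2 TPM, mean 17 to 246 TPM, with 1 library after IH at 5246 TPM) and kidney markers in 3 of 3, while 2 of 3 red blood cell genes rose and 1 fell. Of liver's own 5 markers 0 rose and 1 fell. They summed to 55122 TPM in normoxia and 39869 TPM after IH (median 54431 and 37172 TPM), and the part of these markers was not tested. In cerebellum, 0 of 7 were called (15.0% of 14892 genes; 0 of 7 with the fold rule, 2.64%), and 2 had an unadjusted p under 0.05, Klf15 (0.18, p = 0.043) and Mef2d (0.27, p = 0.0343), as did 4514 of all genes. Trim63 there had an interval from −1.20 to 0.25.

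The pathway lists in these 3 tissues are read beside 19.8% of all genes called in kidney, 24.2% in liver and 15.0% in cerebellum, and beside an all-gene median of −0.01 in each. Other ubiquitin ligases gave 1 lower of 8 in kidney (median −0.08), 0 of 7 in liver (0.05) and 0 of 11 in cerebellum (0.00). FOXO-linked genes gave 1 higher and 2 lower of 11 in kidney (−0.01), 2 higher of 11 in liver (0.05) and 1 lower of 11 in cerebellum (−0.08). The myostatin and activin pathway gave 2 higher and 1 lower of 11 in kidney (0.07) and 0 of 10 in both others (−0.04 in liver, 0.02 in cerebellum). The IGF, AKT and mTOR pathway gave 3 higher and 1 lower of 15 in kidney (0.05), 1 higher and 2 lower of 14 in liver (0.06), and 3 higher and 1 lower of 14 in cerebellum (0.08). Myogenic partners gave 1 lower of 8 in kidney (0.02), 0 of 8 in liver (0.05) and 3 higher of 11 in cerebellum (−0.09). KLF15-linked genes gave 1 higher of 6 in kidney (0.07), 1 higher and 2 lower of 6 in liver (−0.01) and 1 higher of 7 in cerebellum (0.10). Glucocorticoid-responsive genes gave 0 of 7 in each (0.06, 0.17 and 0.02), clock genes 0 of 3 in each, and denervation genes, tested in cerebellum alone, 0 of 3 (−0.35).

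The design also asked how these genes follow the time of day and whether IH altered this. Rhythms were tested by fitting a 24-hour cosine curve with limma. Amplitudes are log2 (from the mean to the peak), and the acrophase is the hour of the peak on the scale of the labelled time points. In muscle in normoxia, 2 of 10 genes were called (6.38% of all genes), and after IH 2 of 10 (8.83%). Myod1, the master factor of muscle identity, was called in both. Its amplitude was 0.59 ± 0.10 in normoxia with a peak at 18.7 ± 0.642 h (adjusted p = 0.00143), a 2.27-fold swing from trough to peak. After IH the amplitude was 0.62 ± 0.12 with a peak at 19.7 ± 0.731 h (adjusted p = 0.00449, 2.36-fold). Mean scaled TPM in normoxia went from 9.88 at 7:30 to 27.2 at 16:30. Myog, which acts after Myod1, was not called in normoxia (0.30 ± 0.10, 19.1 ± 1.32 h, adjusted p = 0.199) or after IH (0.14 ± 0.16, 19.8 ± 4.35 h, 0.841), where the fit gave no usable peak hour.

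Fbxo32 was called in muscle after IH, with an amplitude of 0.71 ± 0.18, a peak at 0.605 ± 0.974 h and a 2.68-fold swing (adjusted p = 0.0359). In normoxia the fitted peak was at 0.623 h with an amplitude of 0.40, not called (adjusted p = 0.174). The difference between both rhythms was itself tested and not called (p = 0.427). The highest time point in both treatments was 19:30, with 33.5 scaled TPM in normoxia and 47.1 after IH, and the lowest was 13:30, with 14.5 and 10.5. At 19:30 after IH the 3 mice held 88, 43.6 and 16.5 TPM of Fbxo32 and 304, 198 and 104 TPM of Trim63, so the animals at this time point lay far apart for both genes. The call was lost without any 1 of the 3 replicates (adjusted p from 0.0685 to 0.334) and in the rank test (0.0631). Trim63 was not called (adjusted p = 0.459 and 0.0874).

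Klf15 was called in muscle in normoxia, with an amplitude of 0.29 ± 0.06 and a peak at 10.9 ± 0.786 h (adjusted p = 0.00927), and was not called after IH (0.19, 9.5 h, adjusted p = 0.289; difference p = 0.438). The remaining genes in muscle were not called in either treatment. At an unadjusted p of 0.05 the counts were 5 and 4 of 10, beside 2342 and 3060 of all 12824 genes.

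**Figure D4:**
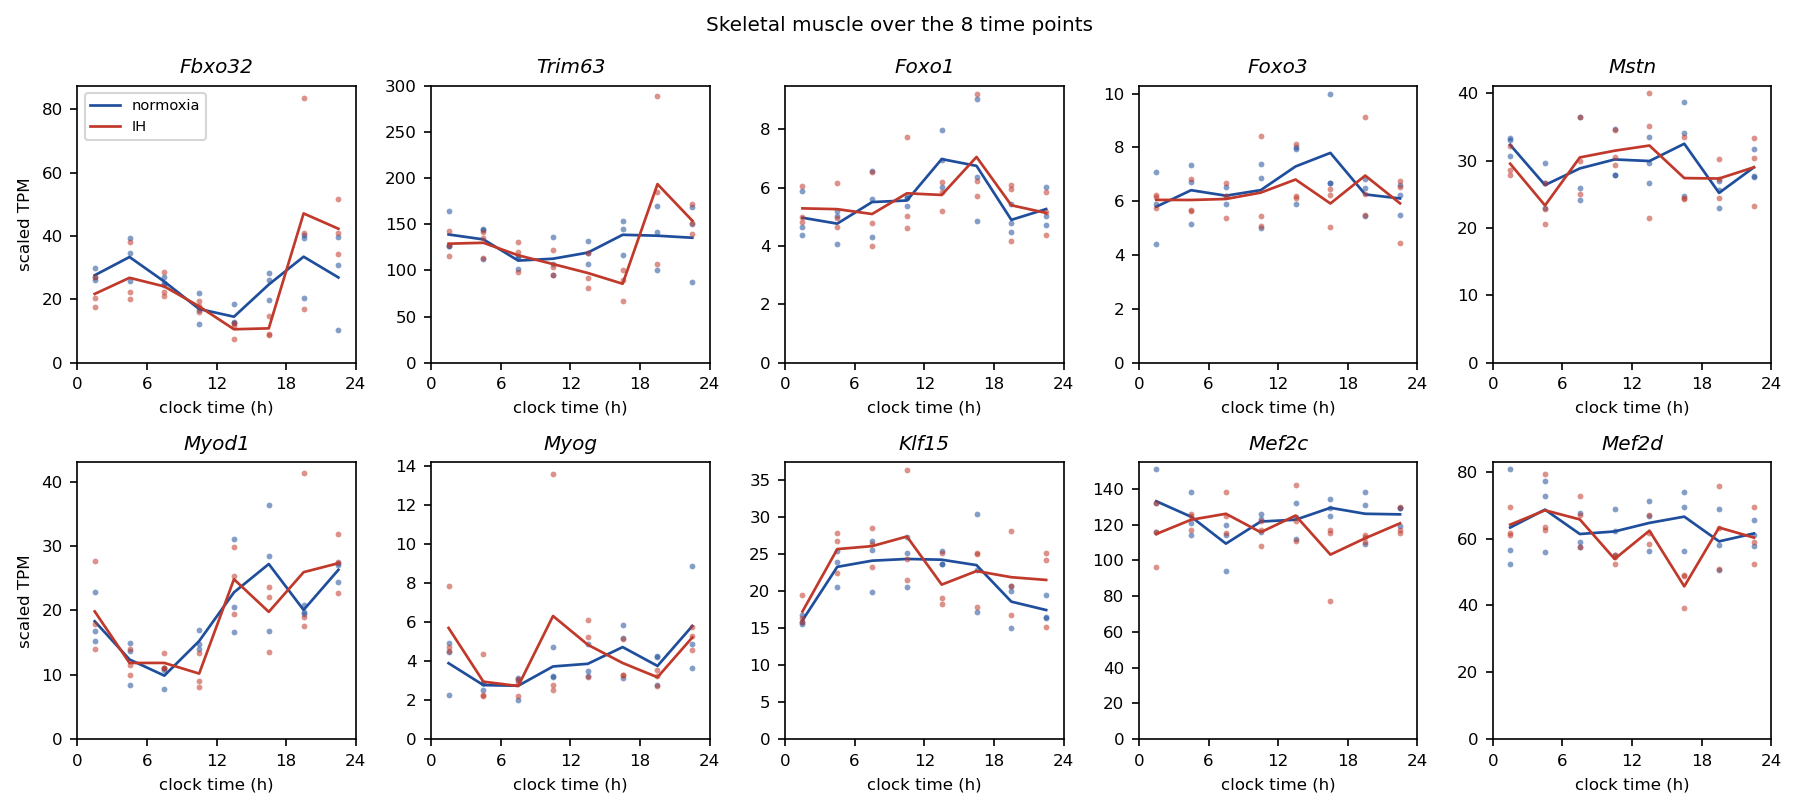
Scaled TPM in muscle of the 10 genes against the labelled hour (clock time on the axis), in normoxia and after IH. Points are the 3 mice and lines their mean. Myod1 is highest between 16:30 and 22:30 in both treatments, and Fbxo32 after IH peaks at 19:30, where the 3 mice lie far apart.

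Klf15 and Foxo3 were the genes called in most tissues, with fitted peak hours close to each other except for Foxo3 in kidney (8.99 h). In lung in normoxia Klf15 had an amplitude of 0.52 ± 0.07 and a peak at 11.9 ± 0.508 h (adjusted p = 1.13e-04, 2.06-fold), and Foxo3 0.37 ± 0.08 and 12.7 ± 0.792 h (0.00867). These were 2 of 7 genes (9.15% of all genes). In liver in normoxia 3 of 5 genes were called (17.7%): Foxo3 (0.48 ± 0.08, 11.7 ± 0.639 h, adjusted p = 4.90e-04), Klf15 (0.30, 11.8 h, 0.0199) and Foxo1 (0.20, 12.7 h, 0.0401). In heart after IH 2 of 7 were called (4.17%), Klf15 (0.28 ± 0.06, 11.5 ± 0.764 h, 0.00936) and Foxo3 (0.31 ± 0.07, 13.3 ± 0.837 h, 0.0199). In heart in normoxia 0 of 7 passed (0.626% of all genes), with 2 at an unadjusted p of 0.05, again Foxo3 (15.5 h, p = 0.00244) and Klf15 (13.9 h, p = 0.00272), beside 771 of all 12779 genes, and 0 in the rank test.

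In kidney in normoxia 2 of 6 were called (21.0%). Trim63 peaked at 19.5 ± 0.882 h with an amplitude of 0.22 ± 0.05 (adjusted p = 0.0115), and Foxo3 at 8.99 h (0.24 ± 0.07, 0.0299). After IH limma called 0 of 6 in kidney (5.74%; 1 at an unadjusted p of 0.05), 0 of 5 in liver (2.63%; 1), 0 of 7 in lung (4.65%; 3), and the rank test called 0 in each. Of all genes, 2218 of 12902 in kidney, 1352 of 11334 in liver and 2540 of 15426 in lung had such an unadjusted p. Among genes not called after IH, Foxo3 in liver had an amplitude of 0.50 at 11.6 h (adjusted p = 0.1) and Klf15 in lung 0.50 at 12.8 h (0.0756). In cerebellum 0 of 7 were called in normoxia (0% of all genes; 2 at an unadjusted p of 0.05, beside 3047 of 14892 genes) and 0 of 7 after IH (0.0134%; 0 unadjusted, beside 510 genes), and the rank test called 0 in both. Many of the calls above were made in only some settings. Foxo3 in liver and Klf15 in lung were called in 11 of 11, Myod1 in muscle in 10 and 9 of 11, and the others in between 4 and 7.

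**Figure D5:**
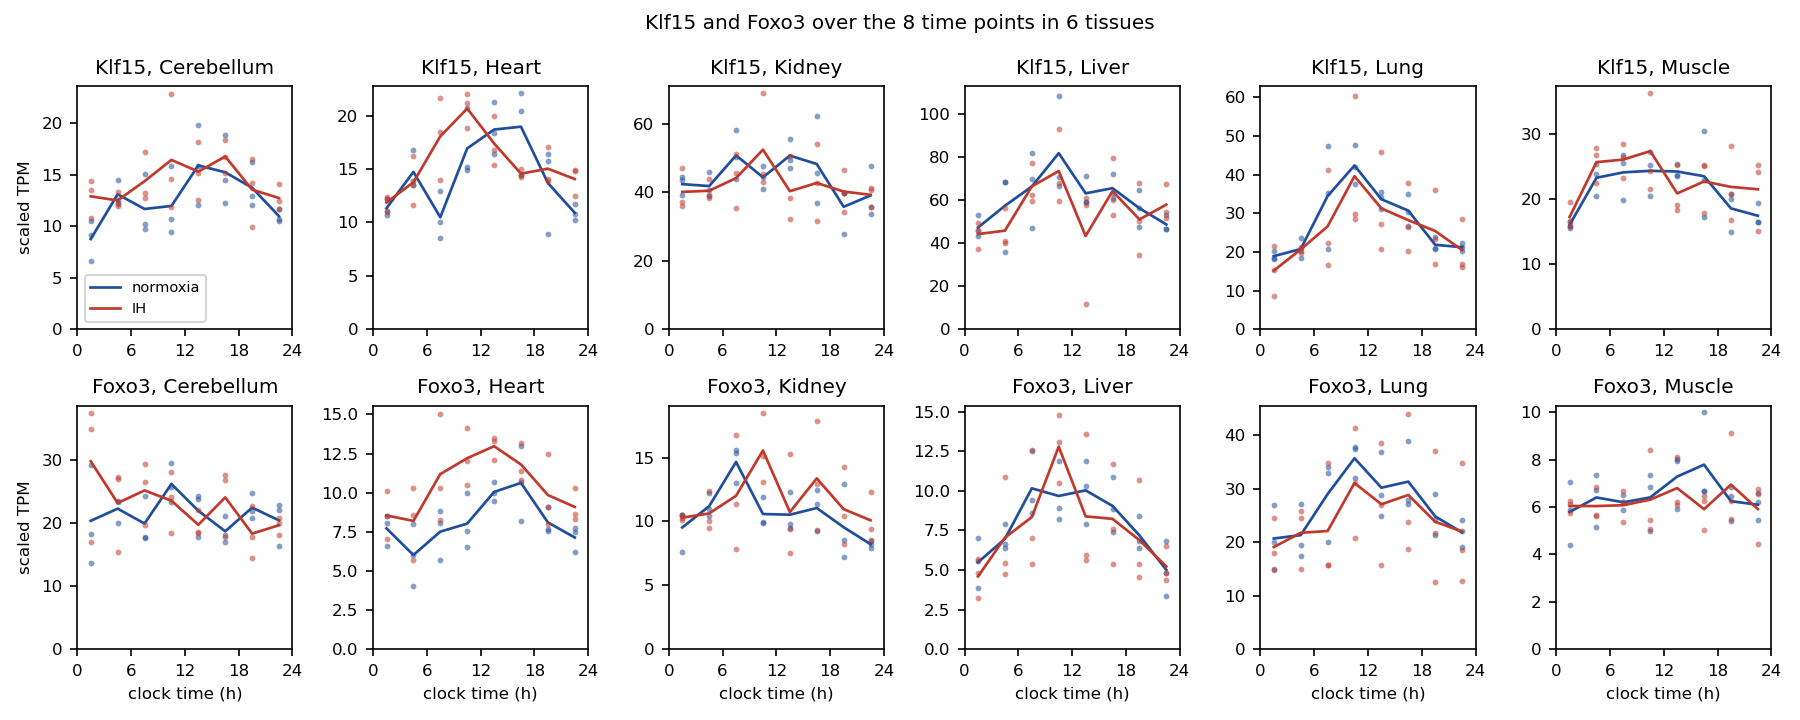
Scaled TPM of Klf15 and Foxo3 in the 6 tissues against the labelled hour (clock time on the axis), by treatment. Points are the 3 mice and lines their mean. In lung in normoxia Klf15 is highest at 10:30 (42.3) and lowest at 1:30 (18.9).

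No rhythm was shown to differ between treatments. The limma test of the difference called 0 genes in every tissue (0% of all genes), and 0 members of the group reached an unadjusted p of 0.05 in any tissue, beside between 72 of all genes in heart and 683 in cerebellum. The lowest in muscle was Mef2c (p = 0.0746). A rhythm called in one treatment and not in the other is therefore not shown to have been gained or lost. The clock genes gave a reference in the same muscle libraries. Dbp peaked at 10.1 h in normoxia and 9.77 h after IH, Nr1d1 at 5.71 and 5.3 h, and Arntl at 23 and 22.8 h, with amplitudes between 1.41 and 1.97, above those of every member of the group.

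Counts of rhythmic pathway genes in muscle stand beside 6.38% of all genes in normoxia and 8.83% after IH, and since the difference test called 0 genes, no list is shown to differ between treatments. Glucocorticoid-responsive genes were rhythmic in 5 of 7 in normoxia and 6 of 7 after IH. Per1, which is also a clock gene, had an amplitude of 1.05 with a peak at 11.5 h in normoxia. Tsc22d3, which encodes the glucocorticoid-induced leucine zipper, had 0.54 at 15.5 h. FOXO-linked genes gave 6 and 2 of 11, with Cdkn1a at 21.7 h (0.75) and 21.2 h (0.93), and Irs2 in both. The myostatin and activin pathway gave 3 and 7 of 13. Fst, which encodes the myostatin inhibitor follistatin, peaked at 1.09 h (0.49) and 0.192 h (0.55). Other ubiquitin ligases gave 2 and 3 of 11, with Fbxo21 and Asb2 in both, the IGF, AKT and mTOR pathway 2 and 1 of 15, myogenic partners 2 and 4 of 14 (Six4 in both), KLF15-linked genes 2 and 1 of 6 (Prodh in both) and denervation genes 0 and 1 of 4 (Chrna1). Mstn itself was flat, with adjusted p = 0.98 in normoxia and 0.732 after IH.

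How the 10 genes varied together in muscle was described by correlation of log2 levels over 24 libraries per treatment, with no test, since libraries share time points and replicate numbers. Fbxo32 and Trim63 moved together in both treatments. In normoxia r was 0.70 (rho = 0.68, and r = 0.56 without the 2 farthest libraries), and after IH 0.91 (0.88 and 0.86). With the means of replicates and time points taken out, r was 0.84 and 0.87. Foxo1 and Foxo3 had r = 0.78 in normoxia (rho = 0.72, 0.64 without the 2) and 0.50 after IH (0.52 and 0.51). With replicates and time points taken out, their r was 0.59 in normoxia and 0.70 after IH. For Myod1 and Myog r was 0.72 (0.73 and 0.65) and 0.47 (0.69 and 0.51), and with replicates and time points taken out 0.11 in normoxia and 0.55 after IH. The median r of all 45 pairs was 0.34 in normoxia and 0.15 after IH. Replicate 3 of normoxia was low for several of them, with Mef2d at 73.1, 64 and 49.5 TPM and Foxo3 at 7.71, 6.63 and 4.95 TPM in replicates 1 to 3.

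The genes with the most similar pattern to each were found among 12823 others over the 24 normoxia muscle libraries, with r after IH beside. For Fbxo32 they were Klhl38 (0.85, and 0.90 after IH), Rasa4 (0.78, 0.39) and Tbc1d8 (0.76, 0.74). For Trim63 they were Cog6 (0.85, 0.55), Sorbs2 (0.85, 0.42) and Mylk2 (0.83, 0.59). Myod1 lay closest to H2aw (0.89, 0.80), Nfil3 (0.89, 0.74) and Cry1 (0.88, 0.83); Nfil3 and Cry1 belong to the clock. Klf15 lay closest to Stk35 (0.85, 0.34), Mocs1 (0.83, 0.42) and the clock gene Cry2 (0.81, 0.62). For Foxo1 they were Ahnak (0.87, 0.50), Baz1b (0.86, 0.50) and Klf13 (0.85, 0.61), and for Foxo3 the endothelial genes Flt1 (0.90, 0.52) and Adgrf5 (0.88, 0.60), and Sptbn1 (0.88, 0.27). Mstn came with Rab10 (0.77, 0.67), Eno3 (0.77, 0.51) and Chrne (0.75, 0.23), and Myog with Nqo2 (0.78, 0.00), Hspb1 (0.77, 0.54) and Thbd (0.77, 0.31). Mef2c came with Cdnf (0.88, 0.76), Atp6v0e2 (0.87, 0.67) and Strn3 (0.87, 0.81). Mef2d came with Pbxip1 (0.94, 0.92), the muscle sodium channel gene Scn4a (0.93, 0.93) and Ficd (0.93, 0.76). Being the highest of many, these normoxia values are selected, and the values after IH were not used in the choice. With the means of replicates taken out, 7 of 30 normoxia values moved by at least their standard error and 23 did not. The values of Foxo3 fell to 0.78, 0.74 and 0.75 and those of Mef2d to 0.89, 0.84 and 0.83. That of Myod1 with Cry1 rose to 0.94.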

How the data were processed

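Poly(A) RNA from 6 mouse tissues was quantified by the authors with kallisto and summed to genes, and the values they deposited are TPM, which keep no depth. Since these are not counts, limma 3.58.1 in R 4.3.3 was used in place of the authors' DESeq2. Each tissue's TPM was scaled by median-of-ratios factors. A pseudocount of 0.5 was added before taking log2, and genes averaging under 1 TPM were left out. Fits held treatment alone, with an intensity trend. Tests were 2-sided, with Benjamini-Hochberg adjustment over all genes tested, and were checked on simulated data. Calls used an adjusted p of 0.05, alone or with 1.5-fold. P-values measure the spread between libraries, taken as independent mice. Rhythms were F tests of a 24-hour cosine and sine, with a rank test as an alternative. Other scalings, pseudocounts, filters and terms, and omitted replicates, were also tried.

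Members and lists were chosen with earlier results of these data known. Named genes were the 10 members, up to 3 called genes by size per pathway list in muscle and in heart, and 3 genes of highest Pearson r per member in muscle. Other genes named for rhythm, and single marker genes, were chosen after their values were seen. Omitting libraries rich in Gm19220, and correlations within replicates, were chosen after seeing the data. Software also included Python 3.11.15, pandas 2.3.3, numpy 2.4.6, scipy 1.17.1 and matplotlib 3.10.9. Values of some list genes are not reported here.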

Additional observations from a re-analysis of the deposited data

Results flagged for a closer look

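The change after IH differed between muscle and heart, by the limma interaction test, for Foxo1 (−0.37 log2, muscle minus heart; −0.24 without replicate 1, adjusted p = 0.0871), for Foxo3 (−0.43; −0.24 without replicate 1, adjusted p = 0.141), for Mef2c (−0.44; −0.41 without replicate 1, adjusted p = 0.0242) and for Mef2d (−0.29; −0.11 without replicate 1, adjusted p = 0.5). The mean number of genes above 0 was 25124 in normoxia and 21447 after IH in heart, and 23310 and 23501 in muscle; its part in the difference was not tested.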

How the results depend on the processing

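Over 630 refits of single-gene changes after IH, 33 newly passed with the same sign, 25 no longer passed with the same sign and 565 stayed on their side of the threshold. The sign changed in 69 of 510 refits of values not called and 5 of 120 of called values. The sign changes that involved a call, before or after the change of setting, were 7: with genes detected as a term, heart Fbxo32 −0.12 and Mef2c −0.17 and lung Foxo1 0.04 and Foxo3 0.59; with 1 replicate alone, kidney Foxo1 −0.07 (replicate 2), lung Foxo3 0.56 (replicate 3) and lung Mef2d −0.09 (replicate 1). The cause was not tested. Muscle stayed at 0 of 10 in all 15 alternatives.

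Counts of genes called after IH that moved by over 1.5 times, or to or from 0, were as follows; smaller moves, such as heart from 4 to 3 and lung from 3 to 4 or 2, are left out. With TPM as deposited heart went from 4 to 7, kidney from 1 to 0 and lung from 3 to 5. With genes detected as a term heart went to 0, kidney to 3, liver from 0 to 1 and lung with the fold rule from 1 to 2. Replicate 1 alone gave 0 in kidney, 1 in liver and 3 in lung with the fold rule; replicate 2 alone 2 in cerebellum, 1 in heart, 0 in kidney, 1 in liver and 2 in lung with the fold rule; replicate 3 alone 1 in heart and 4 in kidney. Without libraries rich in Gm19220, kidney gave 0 and liver 1. Leaving out 1 replicate gave 0 to 2 in cerebellum (0 to 1 with the fold rule), 2 to 4 in heart, 0 to 3 in kidney, 0 to 3 in liver, 1 to 2 in lung with the fold rule, and 1 to 4 for the difference between muscle and heart.

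Counts of rhythmic genes, which were 2 in heart after IH, kidney in normoxia, lung in normoxia and muscle in both treatments, 3 in liver in normoxia and 0 elsewhere, moved too. TPM as deposited gave 0 in heart after IH and 1 in kidney, lung and muscle in normoxia. Linear TPM gave 0 in heart after IH, kidney in normoxia and muscle in normoxia, and 1 in liver in normoxia, lung in normoxia and muscle after IH. Time point as 8 levels gave 0 in heart after IH and kidney in normoxia and 1 in liver and muscle in normoxia. In lung in normoxia this setting lost the call of Foxo3, while Klf15 was called. The rank test gave 1 in kidney in normoxia and 1 in muscle after IH. Without the lowest-correlation library liver after IH gave 1, and without Gm19220-rich libraries kidney in normoxia gave 0 and liver after IH 1. Leaving out 1 replicate gave 0 to 1 in heart after IH, 0 to 2 in kidney in normoxia, 0 to 1 in kidney after IH, 1 to 3 in liver in normoxia, 1 to 2 in lung in normoxia, 1 to 2 in muscle in normoxia and 0 to 1 in muscle after IH.

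The replicate numbers were not taken to pair IH with normoxia libraries of a tissue and time point, since only 54 of 144 same-numbered pairs had deviations correlated above 0.1. These pairs are of different mice, so the check does not cover tissues of the same mouse. Liver had 16 of 24, with a mean r of 0.28 in replicate 1 and 0.34 in replicate 3, beside −0.10 and −0.23 with other numbers. Muscle had 12 of 24, with 0.23 in replicate 3 beside −0.15. In lung replicate 3 it was −0.19 beside 0.11. With the replicate block, IH calls were 5 in heart, 1 in kidney, 3 in lung, 1 in liver and 0 in muscle, rhythm calls 1 in kidney, 1 in liver and 2 in lung after IH, and the muscle and heart difference 5. The values keep no depth per library, so what depth limits in a single library cannot be stated.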
